A study of Mus musculus with 127 samples.

Results

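S100a8, S100a9, Lyz2, Anxa1 and Fcnb encode abundant defence proteins of myeloid cells, and their transcripts were followed here in single bone marrow cells. The genes were chosen by name with earlier results of these data known, so their high levels are not an independent result. All 5 were found among the 23946 genes of the table. The cells came from untreated wild-type mice of strain C57BL/6 and were enriched for CD117, the Kit receptor of progenitors. Sorting gave 46 cells of a Ly6g high gate, 41 of a Ly6g low gate and 40 of a CD11b+ gate. The sample titles name the population GMP-P for both Ly6g gates and GMP, without the P, for the CD11b+ gate. Granulocytes carry Ly6g on their surface, and myeloid cells carry the integrin CD11b, encoded by Itgam. The labels give CD11b+ for all 3 gates, and name neither the animals nor their age or sex. Each gate is therefore 1 sample of cells, no difference between gates has a replicate check, and every SD below is a spread over cells.

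S100a8 and S100a9 are small calcium-binding proteins that pair as calprotectin, which takes zinc and manganese away from microbes and signals through Toll-like receptor 4 when it is released. Lyz2 is lysozyme M, an enzyme that cuts the peptidoglycan of bacterial walls. Anxa1 is annexin A1, a calcium-dependent lipid-binding protein that acts on formyl peptide receptors and limits inflammation. Fcnb is ficolin B, a lectin of myeloid cells that recognises sugars on microbes and starts the lectin route of complement. Calprotectin lies in the cytosol of neutrophils, lysozyme is packed in their granules, and both are made in large amounts while granulocytes mature in the marrow.

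The start regions of 3 members are shown because S100a8 and S100a9 had the highest levels and moved together over the cells, while Fcnb followed another course. Each line gives the 250 bases before the RefSeq start in the build GRCm38.p6, read 5′ to 3′ on the gene's strand. S100a8 is on the plus strand at chr3:90668821-90669070, S100a9 on the minus strand at chr3:90695722-90695971 and Fcnb on the minus strand at chr2:28084879-28085128. Capitals mark matches on either strand to 3 motifs chosen after the letters were seen, namely TTGCNNAA of the C/EBP factors, AGGAAGT of the ETS factors (the family of Spi1), and the TATA box TATAAA.
S100a8: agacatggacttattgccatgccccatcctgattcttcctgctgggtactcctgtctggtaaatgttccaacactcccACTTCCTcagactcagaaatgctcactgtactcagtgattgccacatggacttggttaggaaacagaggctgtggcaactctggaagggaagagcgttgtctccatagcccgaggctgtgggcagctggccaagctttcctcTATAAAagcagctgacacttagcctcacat
S100a9: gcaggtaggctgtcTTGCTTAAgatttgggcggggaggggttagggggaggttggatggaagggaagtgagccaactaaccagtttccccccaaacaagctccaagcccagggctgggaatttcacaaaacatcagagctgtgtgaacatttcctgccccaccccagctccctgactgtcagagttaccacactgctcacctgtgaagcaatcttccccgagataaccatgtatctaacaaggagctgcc
Fcnb: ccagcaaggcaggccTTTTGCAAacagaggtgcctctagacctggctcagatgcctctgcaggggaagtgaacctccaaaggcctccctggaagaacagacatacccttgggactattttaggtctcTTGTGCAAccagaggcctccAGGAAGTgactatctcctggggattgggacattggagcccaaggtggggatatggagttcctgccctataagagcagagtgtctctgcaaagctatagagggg
The S100a8 window held 1 ETS motif and 1 TATA box, the S100a9 window held 1 C/EBP motif, and the Fcnb window held 2 C/EBP motifs and 1 ETS motif. Of 32851 such windows of 27025 genes, 9.56% held the C/EBP motif, 7.69% the ETS motif and 12.4% the TATA box. The matches describe letters only, and the 3 motifs did not overlap in these windows.

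Values are in TPM (transcripts per 1000000), a share of a cell's transcripts corrected for gene length, which allows levels of different genes to be compared. The share keeps no read depth. The median number of genes at 1 TPM or more was 1695 in Ly6g high, 2521 in Ly6g low and 2464.5 in CD11b+ cells, with extremes of 821 and 5173. A deposited annotation gave each cell 1 of 11 classes. How the classes were made is not stated, and they may rest on the levels of these same cells. Levels by class are therefore a description. Myelo-2 was the most frequent class and held 27 cells from the Ly6g high gate, 31 from Ly6g low and 14 from CD11b+. As a check of the gates, the mean level of the Ly6g transcript was 936 TPM in the Ly6g high gate, 353 in the Ly6g low gate and 171 in the CD11b+ gate. Itgam was lowest in the gate named for its protein, with 228, 112 and 66.9 TPM in the same order. Well positions repeat between Ly6g high and Ly6g low cells, which are read here as lying on separate plates, although no plate is named. Column names of the CD11b+ cells begin with a number that no label explains, and those of the other cells with their gate. Gate and plate therefore cannot be told apart.

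Several cells carried genes of another cell type than their class names, and 2 of them stood farthest from it. The only cell of class MDP, from Ly6g low, had 172424 TPM of Prss34 and 43285 TPM of Mcpt8, both proteases of basophils. In 1 CD11b+ cell of class Myelo-4 the 9 monocyte markers summed to 7537 TPM, with Ctss at 4461 TPM and F13a1 at 729 TPM. In the same cell Ngp was at 65.2 TPM and Ltf at 7.65 TPM, against medians of 83331 and 11697 TPM in the other Myelo-4 cells. Its Lyz2 stood at 28506 TPM, while its S100a8 was at 1817, S100a9 at 507 and Anxa1 at 276 TPM. It thus had the highest Lyz2 and the lowest calprotectin transcripts of its class. Among the HSCP-2 cells, 1 CD11b+ cell had 4766 TPM of the basophil, mast cell and eosinophil list and 1895 TPM of the monocyte list, beside 486 TPM of the progenitor list. A Ly6g high HSCP-2 cell had 1708 TPM of the megakaryocyte and 1074 TPM of the erythroid list beside 653 TPM of the progenitor list, and another had 1550 TPM of the B cell list beside 1339. In Myelo-2, 1 Ly6g low cell had 1977 TPM of the progenitor list, where the class median was 1.21. These other cells were kept throughout. Without the MDP and the Myelo-4 cell, 1, 2 and 3 members differed 2-fold or more in the 3 gate pairs below, against 1, 2 and 2 with them.

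S100a9 and S100a8 were the most abundant transcripts of all genes, with means over all cells of 134487 and 124226 TPM. Lyz2 ranked 6 with 12167 TPM, Anxa1 11 with 6827 TPM and Fcnb 36 with 1781 TPM. The 5 members together took 36.2% ± 12 of all TPM in Ly6g high cells (SD, n = 46 cells), 29.8% ± 12 in Ly6g low cells (n = 41) and 16.4% ± 16.2 in CD11b+ cells (n = 40). Single cells ranged from 0.0191% to 59.5%. S100a8, S100a9, Lyz2 and Anxa1 were at 1 TPM or more in every cell, and Fcnb in 111.

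**Figure D1:**
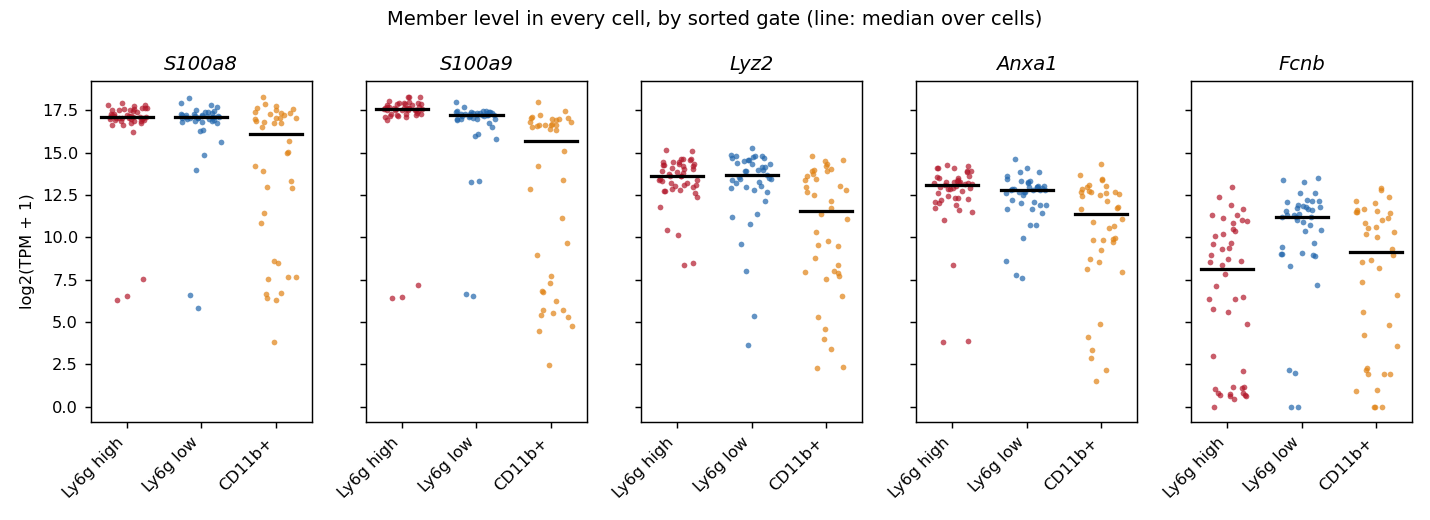
Level of each member in every cell as log2(TPM + 1) (vertical axis), by sorted gate (46 Ly6g high, 41 Ly6g low and 40 CD11b+ cells). Each point is 1 cell and the black line is the median over cells. S100a8 and S100a9 form a tight band near the top in both Ly6g gates, CD11b+ cells spread over the whole range, and Fcnb spreads in all 3 gates.

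S100a8, the first of the calprotectin pair, had a lowest, median and highest level of 76.9, 141410 and 250312 TPM in Ly6g high cells. In Ly6g low cells these were 55.1, 140941 and 303082 TPM, and in CD11b+ cells 13.3, 74918 and 320407 TPM. The ranges overlapped in all 3 gates, and the medians of the Ly6g gates were nearly equal. The log2 ratio of mean TPM, after adding 1 TPM to each mean, was 0.09 for Ly6g high over Ly6g low, -0.66 for CD11b+ over Ly6g low and -0.74 for CD11b+ over Ly6g high.

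S100a9, its partner, was at 85.5, 198100 and 328255 TPM (lowest, median, highest) in Ly6g high cells. It was at 91.1, 155190 and 259129 TPM in Ly6g low cells and at 4.47, 59075 and 261615 TPM in CD11b+ cells. Its order of gates was Ly6g high, Ly6g low, CD11b+, and neighbouring gates overlapped. The log2 ratios in the order used for S100a8 were 0.50, -1.08 and -1.58.

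Lyz2 was at 331, 12685 and 36669 TPM in Ly6g high cells, at 11.3, 13348 and 39621 TPM in Ly6g low cells and at 3.84, 3070 and 28506 TPM in CD11b+ cells. The Ly6g gates could not be ordered, since their means differed by a log2 ratio of -0.08. CD11b+ cells were lower than Ly6g low by -1.07 and than Ly6g high by -0.99. Lyz1 is a near-identical copy of Lyz2, and it held 10.6% of the TPM of the pair over all cells. The estimate can split reads between such copies, so the division between Lyz1 and Lyz2 is uncertain.

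Anxa1 was at 13.4, 8709 and 19716 TPM in Ly6g high cells, at 196, 7151 and 25225 TPM in Ly6g low cells and at 1.90, 2729 and 20999 TPM in CD11b+ cells. Its ratios were small between the Ly6g gates (0.27) and lower in CD11b+ cells (-0.78 against Ly6g low, -1.06 against Ly6g high).

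Fcnb had another order of gates. It was at 0, 282 and 8165 TPM in Ly6g high cells, at 0, 2373 and 11581 TPM in Ly6g low cells and at 0, 565 and 7667 TPM in CD11b+ cells. The highest median was thus in Ly6g low and the lowest in Ly6g high. Fcnb reached 1000 TPM, a level chosen after the values were seen, in 14 of 46 Ly6g high cells (30.4%, exact Clopper-Pearson 95% interval 17.7 to 45.8). It did so in 28 of 41 Ly6g low cells (68.3%, 51.9 to 81.9) and in 19 of 40 CD11b+ cells (47.5%, 31.5 to 63.9). The intervals cover counting error only. The log2 ratios were -1.58 for Ly6g high over Ly6g low, -0.89 for CD11b+ over Ly6g low and 0.68 for CD11b+ over Ly6g high.

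Read against all genes, the counts of members were small. A gene counts as measured in a pair when 25% or more of the cells in 1 of its gates reach 1 TPM, and was counted at a 2-fold difference. Between Ly6g high and Ly6g low, 0 of 5 members were higher and 1 (Fcnb) was lower, where 7.96% of 3983 measured genes were higher and 23.7% lower, with a median log2 ratio of -0.29. In CD11b+ against Ly6g low cells 0 members were higher and 2 (S100a9 and Lyz2) lower, where 30.3% of 4774 genes were higher and 7.83% lower, with a median of 0.48. In CD11b+ against Ly6g high cells 0 members were higher and 2 (S100a9 and Anxa1) lower, where 44.5% of 4447 genes were higher and 6.93% lower, with a median of 0.83. On these TPM values CD11b+ cells thus differed from both Ly6g gates in opposite directions for most members and for the median gene. For the median gene against Ly6g low this did not hold after the rescaling given next.

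TPM fills a fixed total, and the members and the granule genes took much of it. A rescaling without these 29 genes, which held a median of 60.3%, 56.9% and 27.9% of TPM in the 3 gates, moved the median of all genes by 0.15, -0.45 and -0.58. The median log2 ratios became -0.14 for Ly6g high over Ly6g low, 0.03 for CD11b+ over Ly6g low and 0.25 for CD11b+ over Ly6g high. The shares of genes counted higher and lower became 11.3% and 21.3% for Ly6g high over Ly6g low, 19.6% and 15.5% for CD11b+ over Ly6g low, and 30% and 16.1% for CD11b+ over Ly6g high. None of the 15 member ratios moved by as much as 1.5-fold under it.

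Within Myelo-2 most member ratios between gates were smaller than over whole gates. The exceptions were Fcnb in CD11b+ over Ly6g high (0.85 against 0.68) and Lyz2 in Ly6g high over Ly6g low (-0.24 against -0.08). S100a8 had medians of 138399, 146592 and 150382 TPM in Ly6g high, Ly6g low and CD11b+ cells of this class, and S100a9 had medians of 191458, 157136 and 110579 TPM. Lyz2 medians were 12685, 18300 and 15619 TPM and those of Anxa1 8570, 7289 and 6994 TPM. Fcnb was at 0.65, 777 and 8165 TPM (lowest, median, highest) in the 27 Ly6g high cells, at 2.99, 2373 and 6349 TPM in the 31 Ly6g low cells and at 11, 2482 and 7104 TPM in the 14 CD11b+ cells. It reached 1000 TPM in 12 of 27 (44.4%, 25.5 to 64.7), 22 of 31 (71%, 52 to 85.8) and 12 of 14 cells (85.7%, 57.2 to 98.2).

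No member differed 2-fold in mean TPM between gates of this class. The log2 ratios of Fcnb were -0.84 for Ly6g high over Ly6g low, 0.01 for CD11b+ over Ly6g low and 0.85 for CD11b+ over Ly6g high, and those of S100a9 were 0.25, -0.42 and -0.66. Among all measured genes, 13.1% were higher and 19.8% lower in the first pair, 17% and 23.4% in the second, and 23.2% and 19.8% in the third. On the mean of log2(TPM + 1), which weights low cells more, the Fcnb differences were -1.52 in the first pair and 1.46 in the third, so the count of 0 of 15 becomes 2 of 15. For S100a8, Lyz2 and Anxa1, the log2 ratios of CD11b+ over either Ly6g gate lay between -0.35 and 0.11 within Myelo-2, against -1.07 to -0.66 over all cells. Fcnb had a rho of 0.50 with the number of genes detected over the 72 Myelo-2 cells. A restriction of Myelo-2 by genes detected, chosen after seeing the data, kept 23 Ly6g high, 25 Ly6g low and 13 CD11b+ cells. The log2 ratios of Fcnb were then -0.50, 0.27 and 0.77 in the same order of pairs. The part of genes detected in the Fcnb differences was not tested further.

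The balance of the calprotectin pair differed between the gates inside this class. In Myelo-2 cells the difference of log2(TPM + 1), S100a8 minus S100a9, was -0.33 ± 0.22 in Ly6g high (SD, n = 27 cells), -0.06 ± 0.20 in Ly6g low (n = 31) and 0.42 ± 0.24 in CD11b+ cells (n = 14). S100a8 was the lower of the pair in 24 of 27 Ly6g high, 19 of 31 Ly6g low and 1 of 14 CD11b+ cells. The ranges ran from -0.78 to 0.21, from -0.38 to 0.36 and from -0.05 to 0.85, so the outer gates overlapped only between -0.05 and 0.21. Over whole gates the medians were -0.36, -0.03 and 0.58. The 3 Ly6g high cells of Myelo-3 had a mean of -0.33 and the 4 CD11b+ cells of Myelo-3 a mean of 0.22, and the 4 Ly6g low and 1 CD11b+ cells of Myelo-1 were at 0.27 and 0.44. The part of the plate in this offset was not tested.

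**Figure D2:**
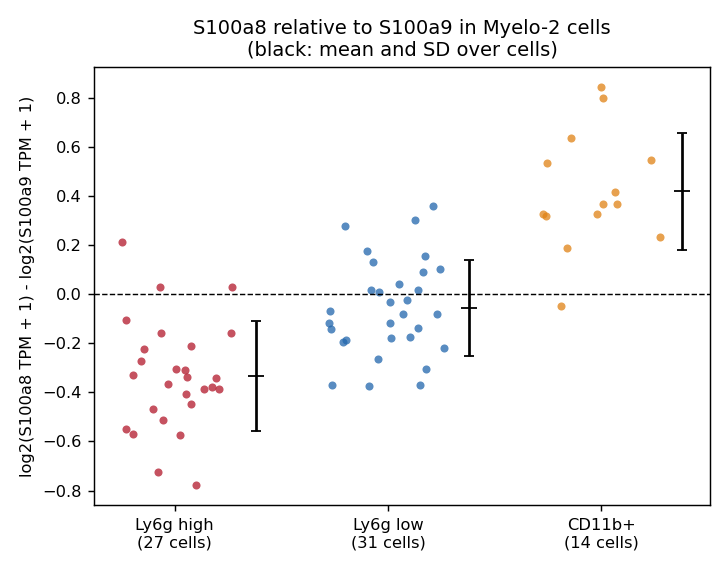
Difference of log2(TPM + 1) between S100a8 and S100a9 (vertical axis) in each Myelo-2 cell, by gate (27, 31 and 14 cells). Coloured points are cells, black marks are the mean and SD over cells, and the dashed line marks equal levels. Most Ly6g high cells lie below the line and 13 of 14 CD11b+ cells above it.

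By class, the calprotectin genes fell into cells with almost none, cells with some and cells with very high levels, and the other members did not follow these steps. The 15 cells outside the Myelo and Gran classes (7 HSCP-2, 5 Mono, 1 MDP, 1 Eryth, 1 Multi-Lin) had S100a8 between 13.3 and 391 TPM and S100a9 between 4.47 and 207 TPM. The Eryth cell, identified by 12563 TPM of the erythroid carbonic anhydrase Car1, had 103 TPM of S100a8 and 74.8 TPM of S100a9. Levels up to this range are read here as background, and whether they are transcript made by those cells was not tested. Above 1000 TPM of both calprotectin genes stood 107 cells, 5 had S100a8 alone, 0 had S100a9 alone and 15, exactly the cells just named, had neither.

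**Figure D3:**
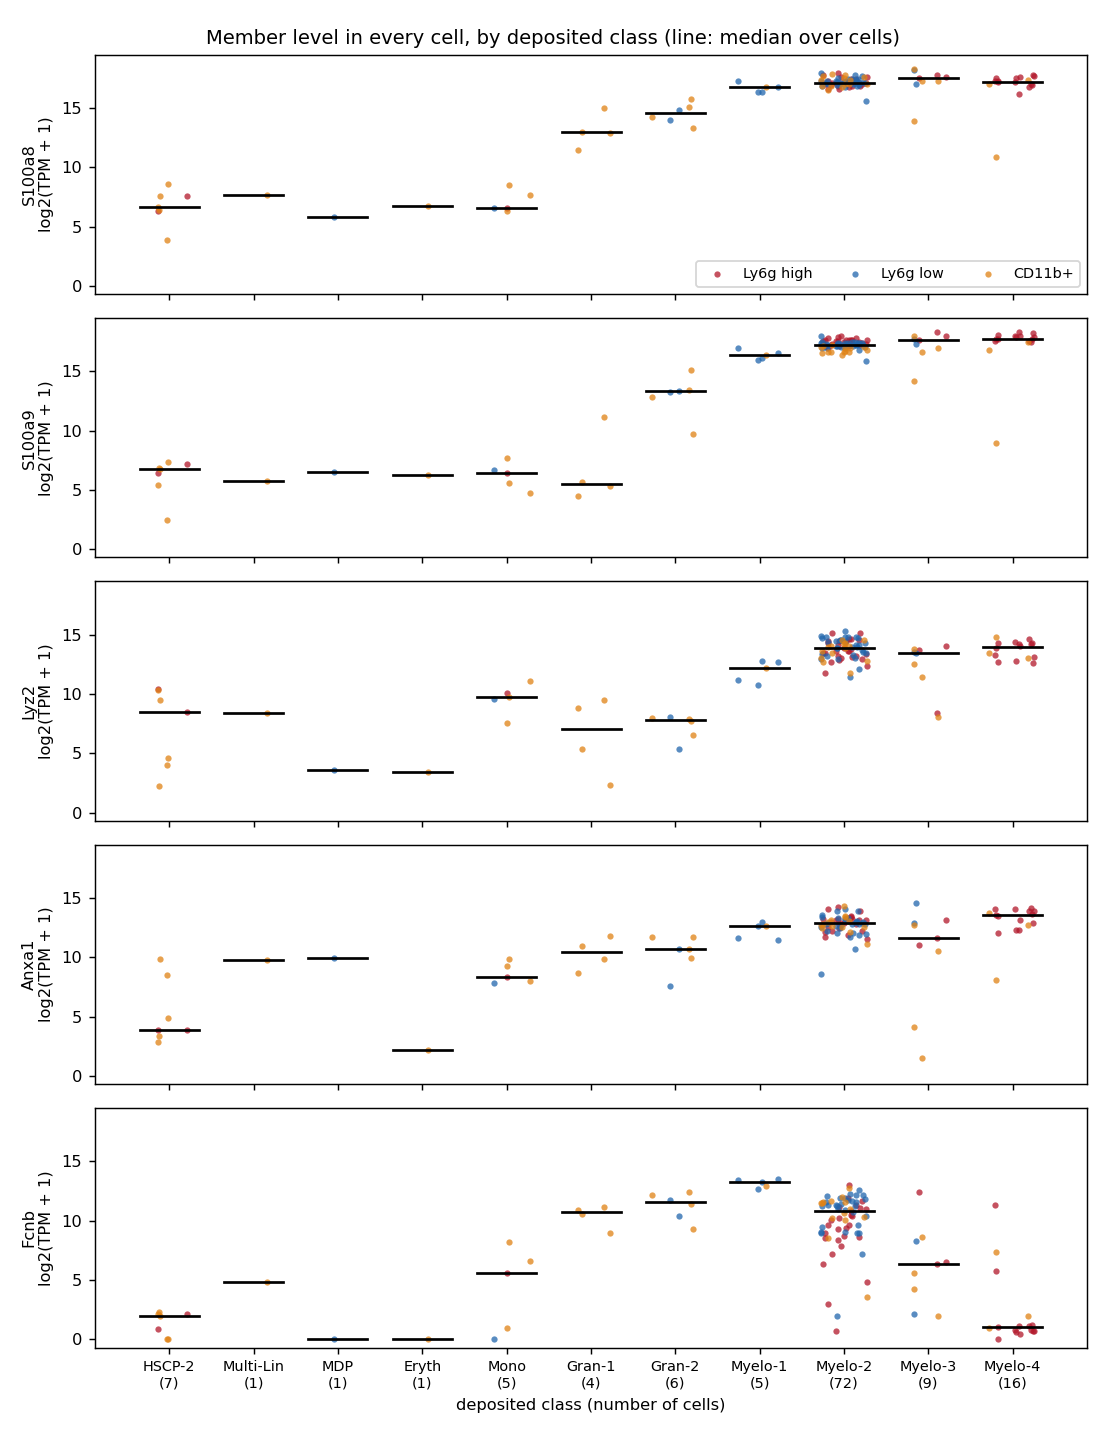
Level of each member in every cell as log2(TPM + 1) (vertical axes), by deposited class with its number of cells (horizontal axis), coloured by gate. Each point is 1 cell and the black line is the class median. S100a8 is already high in Gran-1 while S100a9 is not, Lyz2 stays under 1000 TPM in every Gran cell, and Fcnb is highest in Myelo-1 and near 0 in most Myelo-4 cells.

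S100a8 was high in more early cells than S100a9. In the 4 Gran-1 cells, all CD11b+, S100a8 stood at 2751, 7651, 8206 and 32945 TPM. S100a9 stood in the same order of cells at 21.6, 39, 50.9 and 2318 TPM, so that in 3 of them it was within the background range and S100a8 was not. In the 6 Gran-2 cells S100a8 ran from 10250 to 54145 TPM (median 24533) and S100a9 from 821 to 35455 TPM (median 10280). S100a8 exceeded S100a9 in 10 of 10 Gran cells, by a median log2 difference of 7.12 in Gran-1 and 1.45 in Gran-2. The difference was 0.29 in Myelo-1, -0.12 in Myelo-2, -0.11 in Myelo-3 and -0.40 in Myelo-4 by their medians. These classes differ in their mix of gates, with 13 of 16 Myelo-4 cells from Ly6g high, and within Ly6g high the medians of Myelo-2 and Myelo-4 were -0.34 and -0.42.

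**Figure D4:**
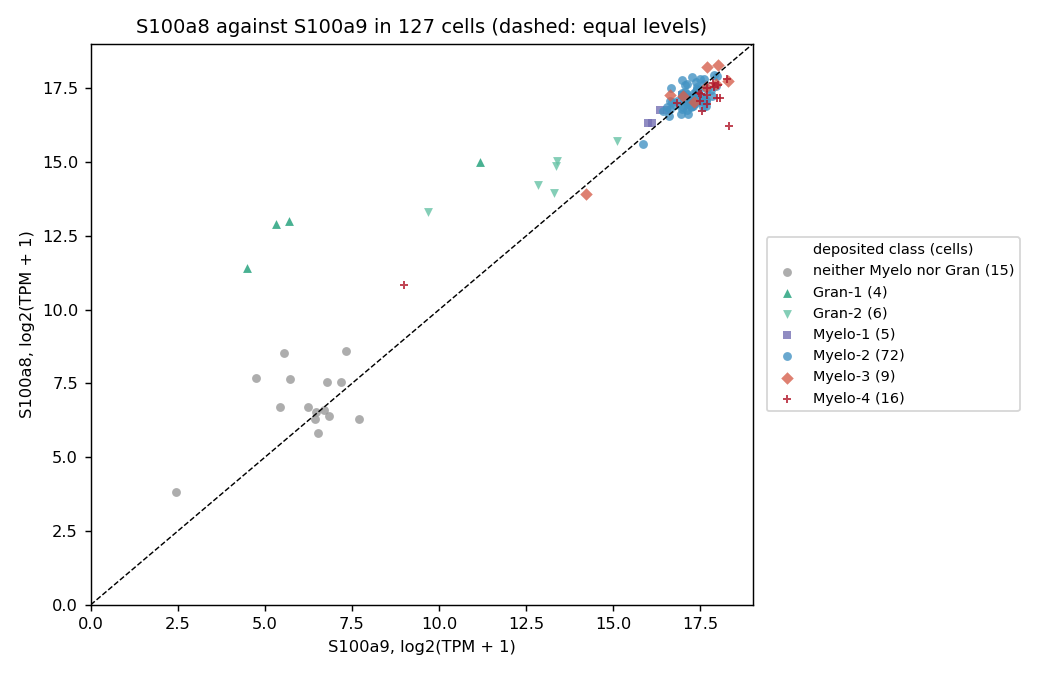
S100a8 (vertical axis) against S100a9 (horizontal axis), both as log2(TPM + 1), in every cell, with marks by deposited class. The dashed line marks equal levels. Gran-1 and Gran-2 cells lie above the line, with S100a8 ahead, and most Myelo cells gather at its upper end.

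In the Myelo classes the medians of both genes were above those of the Gran classes, although single cells overlapped. A Myelo-3 cell with 15559 TPM of S100a8 and 18869 TPM of S100a9 and the Myelo-4 cell with monocyte genes lay below the highest Gran-2 cell in both genes. Median S100a8 was 111081 TPM in Myelo-1 (5 cells), 141565 in Myelo-2 (72), 189938 in Myelo-3 (9) and 153767 in Myelo-4 (16). Median S100a9 was 82694, 156978, 205637 and 212267 TPM in the same classes. The number of genes detected was lower where these levels were high, with medians of 4169 genes in the Gran classes, 3514 in Myelo-1, 2240 in Myelo-2, 1282 in Myelo-3 and 1409 in Myelo-4, and its part in the levels was not tested.

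Lyz2 was low in the Gran classes, where S100a8 was already high. Its median was 238 TPM in Gran-1, 223 in Gran-2, 4618 in Myelo-1, 15395 in Myelo-2, 11363 in Myelo-3 and 16178 in Myelo-4. No Gran cell reached 1000 TPM of Lyz2, whereas 2 of 7 HSCP-2 and 2 of 5 Mono cells did. The Mono median of 882 TPM was above that of both Gran classes, with single cells at 183, 780, 882, 1115 and 2203 TPM.

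Anxa1 was already above 1000 TPM in part of the Gran cells. Its median was 13.7 TPM in HSCP-2, 331 in Mono, 1452 in Gran-1, 1678 in Gran-2, 6291 in Myelo-1, 7604 in Myelo-2, 3143 in Myelo-3 and 11976 in Myelo-4. The MDP and Multi-Lin cells had 990 and 860 TPM, and the highest Mono cell had 919 TPM. Myelo-3 was uneven, from 1.90 to 25225 TPM.

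Fcnb was high in the Gran and Myelo-1 cells and low in most Myelo-4 cells. Its median was 2.89 TPM in HSCP-2, 47.3 in Mono, 1711 in Gran-1, 3080 in Gran-2, 10014 in Myelo-1, 1759 in Myelo-2, 80.0 in Myelo-3 and 1 in Myelo-4. The 5 Myelo-1 cells ran from 6379 to 11581 TPM, and the highest Gran cell was at 5451 TPM. Gates differed here too, with 4 of 5 Myelo-1 cells from Ly6g low and 8 of 10 Gran cells from CD11b+. In Myelo-4 only 3 of 16 cells had 10 TPM or more, and 1 cell with 2580 TPM gave 91.8% of the sum, so the class mean of 176 TPM was 15.4 TPM without it. Over the 4 Myelo classes Fcnb had a rho of 0.69 with the number of genes detected, whose median was lowest in Myelo-3 and Myelo-4. Of the 16 Myelo-4 cells 13 came from Ly6g high, the gate with the lowest Fcnb median within Myelo-2. The part of genes detected and of gate in the class levels of Fcnb was not tested.

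**Figure D5:**
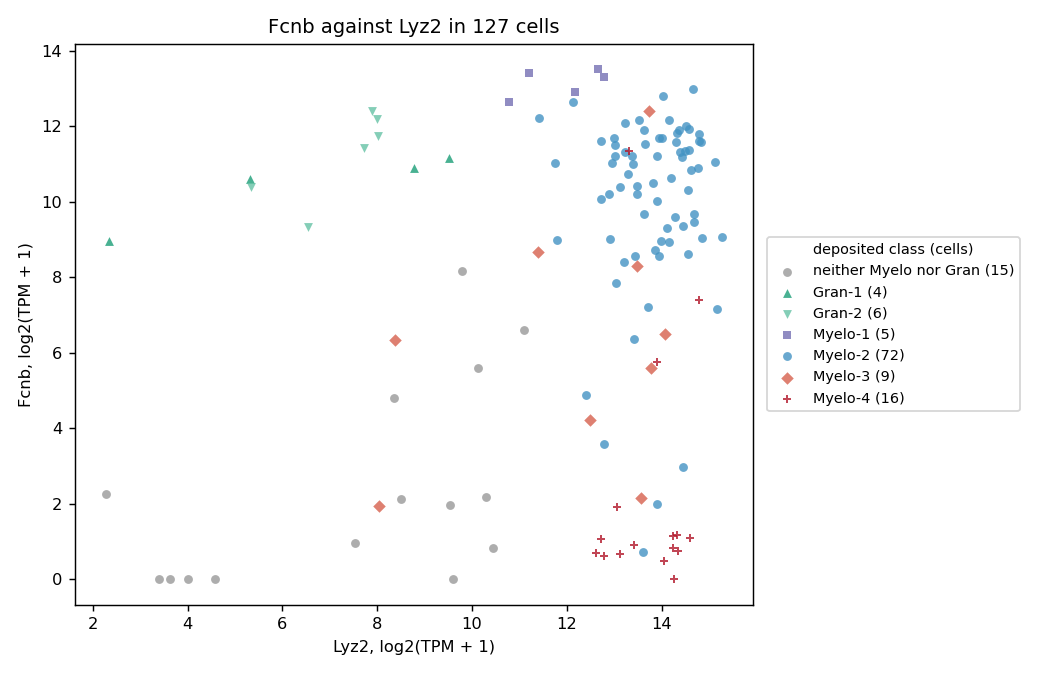
Fcnb (vertical axis) against Lyz2 (horizontal axis), both as log2(TPM + 1), in every cell, with marks by deposited class. Gran cells have Fcnb with little Lyz2, Myelo-1 and most Myelo-2 cells have both, and most Myelo-4 cells have Lyz2 with almost no Fcnb.

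Lyz2 and Fcnb together split the cells in a way that no single member did. At 1000 TPM or more, 8 cells had Fcnb without Lyz2, and all were Gran cells. All 5 members reached this level in 53 cells (5 Myelo-1, 46 Myelo-2, 1 Myelo-3 and 1 Myelo-4), and all but Fcnb in 43 cells, of which 25 were Myelo-2 and 14 Myelo-4. By gate, all 5 were high in 14 of 46 Ly6g high, 26 of 41 Ly6g low and 13 of 40 CD11b+ cells.

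Set beside all genes, Myelo-2 over the Gran classes gave log2 ratios of 2.82 for S100a8, 4.36 for S100a9, 6.16 for Lyz2, 2.17 for Anxa1 and -0.27 for Fcnb. Hence 4 of 5 members were 2-fold higher and 0 lower, where 9.38% of 6164 measured genes were higher and 51.2% lower. From Myelo-1 to Myelo-2, 1 member was higher (Lyz2, 1.89) and 1 lower (Fcnb, -2.20), where 15.3% of 4951 genes were higher and 35.1% lower. From Myelo-2 to Myelo-4, 0 members were higher and 1 lower (Fcnb, -3.52), where 15.2% of 3498 genes were higher and 41.8% lower. The Myelo-4 cell with 2580 TPM made this last fall smaller, since without it the class mean was 15.4 in place of 176 TPM. On the mean of log2(TPM + 1) the difference was -7.74, and without the Myelo-4 cell with monocyte genes the ratio was -3.51. The classes may have been made from the levels of these cells, so nothing is supported by these counts.

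Over the cells, the calprotectin genes followed each other most closely of the 10 pairs of members. Spearman's rho of S100a8 and S100a9 was 0.76 over all cells (Pearson's r 0.95), 0.68 in Ly6g high, 0.79 in Ly6g low and 0.93 in CD11b+ cells. In Myelo-2 it was 0.45 over 72 cells and 0.71, 0.65 and 0.89 within the Ly6g high, Ly6g low and CD11b+ cells of that class. The pooled class was thus lower than each of its gates, which differ by the offset given above. Cells share a gate, a plate and the fixed TPM total, so these values are descriptions.

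Lyz2 and Anxa1 had a rho of 0.66 over all cells, 0.42 in Myelo-2 and between 0.42 and 0.47 in its 3 gates. S100a8 with Lyz2 was at 0.37 over all cells and -0.11 in Myelo-2. Within the Ly6g high, Ly6g low and CD11b+ cells of Myelo-2 it was -0.14, -0.02 and -0.13. S100a9 with Lyz2 was at 0.47 over all cells and -0.04 in Myelo-2, with -0.10, 0.11 and -0.38 in its gates. Lyz2 with Anxa1 and S100a8 with S100a9 were positive in all 3 gates of the class, whereas S100a8 or S100a9 with Lyz2 was not. Fcnb with S100a9 was at -0.15 over all cells and -0.41 in Myelo-2, with -0.36, -0.32 and -0.24 in its gates. The sign of this pair depended on the cells and the measure, since rho was 0.25 in the whole CD11b+ gate and Pearson's r over all cells was 0.31. The number of genes detected had a rho of -0.61 with S100a8, -0.71 with S100a9, -0.36 with Lyz2, -0.42 with Anxa1 and 0.39 with Fcnb over all cells.

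The genes most like each member were sought by rho over all cells of the 3 gates, among 3216 genes. After S100a9, the nearest to S100a8 were Camp (0.58), a cathelicidin of specific granules, Lcn2 (0.56), a siderophore-binding granule protein, Cd52 (0.55) and Lyz1 (0.55). For S100a9 they were S100a8, Lcn2 (0.70), Ifitm6 (0.66), Cd52 (0.66) and the myosin heavy chain Myh9 (0.64), and the lowest was the elongation factor Eef1a1 (-0.79). Nearest to Lyz2 was its copy Lyz1 (0.92), then lactoferrin Ltf (0.75), Ngp (0.71), Lcn2 (0.69) and Anxa1 (0.66), and the lowest was the primary granule peroxidase Mpo (-0.61). The estimate can split reads between Lyz1 and Lyz2, so Lyz1 is not an independent neighbour.

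Anxa1 was nearest to Ltf (0.69), Lyz2 (0.66), the galectin Lgals3 (0.65), Lcn2 (0.64) and Ifitm6 (0.64). Lcn2 thus stood among the nearest 5 of 4 members. Fcnb stood apart from them, with the nucleosome-binding protein Hmgn2 (0.63), Serpinb1a (0.54), an inhibitor of neutrophil proteases, the ribonucleotide reductase subunit Rrm2 (0.54), Clec4a2 (0.52) and the histone Hist1h2bm (0.50). Its lowest was the gelatinase Mmp9 (-0.49). Rrm2 makes building blocks of DNA.

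Among the 72 Myelo-2 cells and 2994 genes the neighbours were partly others. S100a8 was nearest to the actin-binding thymosin Tmsb4x (0.56), then S100a9 (0.45), Gmfg (0.35), Cdc14b (0.32) and Colec12 (0.31). Among those nearest to S100a9 were Ly6a (0.52), Myh9 (0.49), S100a8 (0.45) and Mmp9 (0.44). Lyz2 had Lyz1 (0.89), Lcn2 (0.56), Ltf (0.50), Ctdnep1 (0.43) and Znhit1 (0.42). Of these, 3 were also among its first 5 over all cells, counting its copy Lyz1. Anxa1 had Ifitm6 (0.48), its receptor gene Fpr2 (0.45), Lyz2 (0.42), Ltf (0.42) and Padi4 (0.41). Fcnb had the cyclophilin Ppia (0.51), Napsa (0.51), the chaperonin subunit Tcp1 (0.50), Cdk2ap1 (0.50) and Tom1 (0.49), none of which was among its first 5 over all cells.

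The relatives of the members were far lower. Of 14 other S100 genes, 6 were under 1 TPM in every cell. S100a11 led them with means of 2957, 2609 and 1884 TPM in Ly6g high, Ly6g low and CD11b+ cells. S100a6 was at 386, 98.0 and 184 TPM, and reached 1005 TPM in Myelo-4 with detection in 15 of 16 cells, against 3.01 TPM and 1 of 10 cells in the Gran classes. S100a1 ran the other way, at 727 TPM in the Gran classes, 92.4 TPM in Myelo-2 and 0 in Myelo-4. In Ly6g high over Ly6g low, 4 of the 14 were measured, 1 was higher (S100a6, 1.97) and 1 lower (S100a1, -4.01), with a median of 0.18. In CD11b+ cells 0 and 0 of 4 passed 2-fold against Ly6g low (median 0.41), and 1 was higher and 1 lower against Ly6g high (median -0.36).

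Among 11 other annexins, Anxa2 had 779, 737 and 565 TPM in the 3 gates, and Anxa3 209, 275 and 299 TPM. Anxa1 was thus above the next annexin in every gate. Of the 5 annexins measured in Ly6g high over Ly6g low, 1 was higher and 0 lower (median 0.44), and of 6 in CD11b+ cells 2 were higher and 1 lower against either Ly6g gate (medians 0.21 and 0.17). Of 7 other lysozyme genes, Lyz1 alone was detected, at 1679, 1640 and 969 TPM. Fcna, the other ficolin of the mouse, was detected in 5 cells with a mean of 3.32 TPM, and the mannose-binding lectins Mbl1 and Mbl2 were listed at 0 in every cell. Of 8 genes of that list, Colec12 alone was measured, with log2 ratios of 0.30, 1.16 and 0.87 in the 3 pairs.

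Detection of the receptors that the proteins act on varied between genes and classes. Fpr2, a formyl peptide receptor of annexin A1, had means of 299, 67.6 and 128 TPM in Ly6g high, Ly6g low and CD11b+ cells and was detected in 13 of 16 Myelo-4, 32 of 72 Myelo-2 and 0 of 10 Gran cells. Its rho over cells was 0.54 with Anxa1 and -0.28 with Fcnb. Fpr1 was detected in 17 cells, 9 of them Myelo-4. Tlr4 was detected in 11 cells, Cd14 in 29 and Bsg, a receptor of S100a9, in 62. Of the 9 receptors, 2 were measured in Ly6g high over Ly6g low, 1 higher (Fpr2, 2.13) and 0 lower (median 0.98). In CD11b+ over Ly6g low 1 of 2 was higher and 1 lower (median -0.07), and over Ly6g high 1 of 3 was higher (Cd14, 3.88) and 2 lower (median -1.14).

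The granule genes give the setting. In Myelo-2 over the Gran classes 7 of 8 measured specific granule genes were higher and 0 lower (median 7.32). Of 8 primary granule genes 0 were higher and 6 lower (median -6.72), with Elane at 41010 TPM in Gran and 352 TPM in Myelo-2. In Myelo-4 over Myelo-2, 7 of 7 late neutrophil genes were higher (median 2.44), led by Retnlg at 10493 TPM against 156 TPM. Between gates, 5 of 6 primary granule genes were lower in Ly6g high than in Ly6g low (median -3.92), 0 of 8 specific granule genes differed 2-fold (median 0.05) and 5 of 7 late genes were higher (median 1.16). In CD11b+ cells 4 of 8 specific granule genes were lower against Ly6g low (median -0.96) and 4 of 8 against Ly6g high (median -1.06), and 7 of 8 primary granule genes were higher in either pair (medians 1.45 and 5.23). Late genes were 5 of 6 higher against Ly6g low (median 1.89), and 2 higher and 3 lower of 7 against Ly6g high (median -0.46).

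Among 9 regulators of granulocyte genes, Cebpe was at 106, 82.3 and 68.2 TPM in the 3 gates and Spi1 at 64.9, 34 and 14 TPM. Cebpe, a C/EBP factor of specific granule genes, had a rho of 0.43 with Fcnb and 0.31 with S100a8. Of 5 regulators measured in each pair, 0 passed 2-fold between the Ly6g gates (median -0.18), and 1 was higher and 2 lower in CD11b+ cells against either (medians -0.27 and -0.62).

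Markers of other cells were measured beside these levels. The summed level of 9 monocyte markers had a median of 0.090 TPM in Ly6g high (up to 3847), 0.23 in Ly6g low (up to 2179) and 1.21 in CD11b+ cells (up to 7537), and the Mono cells held 879 to 3847 TPM. For 7 progenitor markers the medians were 0.20, 8.67 and 63.3 TPM, with up to 9875 TPM in a CD11b+ cell of class HSCP-2. Progenitor markers were thus higher in the gate with the lowest calprotectin transcripts. The summed erythroid, megakaryocyte, B cell, T and NK cell, basophil and macrophage lists each had a median of 0 in all 3 gates. The 11 defining neutrophil markers had medians of 191202, 200383 and 99463 TPM, and 0 of them were at 0 throughout any gate. The part of these cell mixtures in the differences between whole gates was not tested. Within Myelo-2 the highest monocyte sum of a cell was 150.1 TPM.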

How the data were processed

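Per the labels' protocols, sorted cells went through a Fluidigm C1 chip, SMARTer cDNA synthesis and Nextera XT libraries. The authors deposited 1 table of log2(TPM + 1) values for 23946 genes, made with Bowtie2, RSEM and the build mm9 per the submitters' processing notes (versions and annotation: not given in the sources used here). Their unit was read from the values, since back-transformed TPM summed to between 999633 and 1005383 in each cell. RSEM shares reads between similar genes by an estimate. How the deposited classes were made is likewise not stated there.

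Log2 values were turned back to TPM with Python 3.11.15, pandas 2.3.3 and scipy 1.17.1. Means, medians and log2 ratios of mean TPM + 1 were computed, which understate differences of genes near 1 TPM. With 1 sample per gate no test was made. All 127 cells were used, no doublet caller was run, and no 2 cells correlated above 0.884. The ratio step was tested on simulated data. The members and 19 gene lists were chosen with earlier results of these data known. Named list genes were those with the highest mean TPM, at most 6 per list, or 3 for markers of other cells. Nearest genes were the 5 with the highest rho among genes at 1 TPM or more in 25% of the cells, leaving out predicted loci, ribosomal, small RNA and mitochondrial genes. A gene that this rule names is not reported here. Promoter windows came from RefSeq (GRCm38.p6), another build than the table, so they are tied to the data by gene symbol only. As alternatives, cells or classes were left out, and other pseudocounts, means, filters and scalings were tried.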

Additional observations from a re-analysis of the deposited data

How the results depend on the processing

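No paired analysis was possible because each gate is 1 sample and no test was made. Of 49 alternative values for the counts, the summed share and the rho of S100a8 with S100a9, 38 were close to the reported ones. The count of members differing 2-fold between Ly6g high and Ly6g low was 1 and became 0 in Myelo-2 cells alone. For CD11b+ over Ly6g low it was 2 and became 5 on the mean of log2(TPM + 1), 0 in Myelo-2 cells and 0 in the 4 Myelo classes, and for CD11b+ over Ly6g high it was 2 and became 5, 0 and 0. Within Myelo-2 the count of 0 became 2 on the mean of log2(TPM + 1), 2 with a 10% trimmed mean and 1 with each gate's highest cell left out. The rho of S100a8 and S100a9 was 0.45 in Myelo-2 cells. Among member pairs with a rho of 0.3 or more, signs turned for S100a8 with Lyz2 (-0.11 in Myelo-2, -0.12 in Ly6g high cells alone, -0.16 in the 4 Myelo classes) and for S100a9 with Lyz2 (-0.037 in Myelo-2). Weaker pairs turned too, such as S100a9 with Fcnb (-0.15 over all cells, 0.25 in CD11b+) and S100a8 with Fcnb (0.08 over all cells, -0.19 in Ly6g high, -0.20 in the 4 Myelo classes). Under 10 settings for the 15 member ratios between gates, 0 ratios past 2-fold changed sign. By 1.5-fold or more, 10 of 15 moved in Myelo-2 cells alone, 10 on the mean of log2(TPM + 1) and 6 in the 4 Myelo classes. None moved that far under the other settings. Smaller ratios did change sign in Myelo-2 cells, such as S100a8 in CD11b+ over Ly6g low (-0.66 to 0.08) and over Ly6g high (-0.74 to 0.11). The alternatives that leave out 2 cells whose genes go against their class, replace medians by means for the pair balance and class levels, take the pair balance in Myelo-2 alone, or restrict Myelo-2 by genes detected were chosen after seeing the data. Depth is unknown from TPM, and 1 highest cell held up to 18.3% of a gate's Fcnb sum.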
